A study of Rattus norvegicus with 6 samples.

Results

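miR-21 is a single hairpin that gives 2 mature microRNAs, miR-21-5p and miR-21-3p, and both are described here in every library of a study of exosomes and the cardiac fibroblasts that released them. The 2 members are the entries named rno-miR-21-5p and rno-miR-21-3p, of 728 mature miRNAs listed, and they were chosen by name. Small RNA was sequenced from 3 exosome libraries and 3 fibroblast libraries. Both groups come from hearts of Wistar rats at postnatal day 1 to 2, with no genotype or drug difference between them. The fibroblasts were primary cells freed by enzymes and grown with 10% serum. The exosomes, small membrane vesicles, were collected by filtration and ultracentrifugation from medium left on the cells for 48 h, which held 1% serum freed of exosomes beforehand. The exosome libraries are called 1, 2 and unnumbered, since 1 deposited exosome column carried no number, and the fibroblast libraries are called 1, 2 and 4. The labels do not say whether the libraries of a group came from separate cultures, so every p-value reflects the spread among these libraries alone, part or all of which may be technical.

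A miRNA hairpin is cut to a short duplex, and as a rule 1 strand, the guide, is loaded into an Argonaute protein and represses messenger RNAs, while the other strand, the passenger, is degraded. miR-21-5p is the guide; it is a classic miRNA of activated fibroblasts and in mouse heart is known for repressing Spry1, a brake on growth factor signalling. miR-21-3p, once written miR-21*, is the passenger, and in rat cells it has been described as carried by fibroblast exosomes to cardiomyocytes.

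The sequences are shown because the 2 arms come from the same precursor and differ in the seed, bases 2 to 8, which sets the targets of a miRNA. They are RefSeq sequences in assembly GRCr8, where the hairpin lies on the minus strand at chr10:71902600-71902691, an miRNA gene listed between Tubd1 and Vmp1. In the mature sequences capitals mark the seed, and in the hairpin capitals mark the mature arms.
miR-21-5p: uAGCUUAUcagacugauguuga
miR-21-3p: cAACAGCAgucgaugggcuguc
mir-21 hairpin: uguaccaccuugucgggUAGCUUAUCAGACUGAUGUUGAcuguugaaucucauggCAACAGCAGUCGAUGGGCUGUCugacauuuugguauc
Each arm is 22 bases long, so their read counts need no correction for length. The 5p arm starts with U and has a GC content of 36.4%, and the 3p arm starts with C and has 59.1%. Of the 728 listed miRNAs 655 had a RefSeq sequence, and 0 of them shared the seed of either arm.

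The exosome libraries were shallow and 1 of them stood apart. Total miRNA reads were 113129 to 120224 in exosomes and 2439559 to 12508651 in fibroblasts. Most exosome reads, 98791 to 107169 per library, were miR-873-3p, so shares are given here with that miRNA left out, of 18164, 14338 and 11825 reads in exosome libraries 1, 2 and unnumbered. A fixed list of 6 fibroblast and mesenchymal miRNAs, among them miR-143-3p and miR-199a-3p, held 0.358%, 0.690% and 6.27% of these reads in exosome libraries 1, 2 and unnumbered, against 26.3% to 30.7% in fibroblasts. The rise in the unnumbered library was mostly miR-143-3p, with 15, 72 and 646 reads, and miR-199a-3p, with 9, 9 and 78. miR-199a-5p went the other way, with 30, 11 and 7 reads. miR-145-5p, miR-214-3p and miR-152-3p had 0 to 5 reads in each exosome library. All 6 were detected in both groups, and 6 cardiomyocyte miRNAs held 0.0254% to 0.0771% in exosomes, against 0.00810% to 0.0172% in fibroblasts. These were 14, 9 and 3 reads in exosome libraries 1, 2 and unnumbered, and of all miRNA reads the cardiomyocyte shares overlapped, at 0.00252% to 0.0116% in exosomes, against 0.00791% to 0.0172% in fibroblasts. The chi-square per degree of freedom was 5.42 between exosome libraries 1 and 2, and 21.4 and 28.6 between these and the unnumbered one. No pair of libraries agreed within sampling noise. With miR-873-3p left out, endothelial, blood and epithelial miRNAs were each a larger share in exosomes, at 0.639% to 0.973%, 0.187% to 0.216% and 0.423% to 0.545%, against 0.0101% to 0.0156%, 0.0109% to 0.0384% and 0.0722% to 0.188% in fibroblasts. Of all miRNA reads, the endothelial share alone of these was higher in every exosome library, at 0.0840% to 0.0966%, against 0.0100% to 0.0152% in fibroblasts; the blood share was 0.0193% to 0.0283%, against 0.0107% to 0.0383%, and the epithelial share 0.0420% to 0.0823%, against 0.0713% to 0.187%. The endothelial list is the 2 arms of mir-126a, and its higher share rests on miR-126a-3p, with 113, 91 and 98 reads in exosome libraries 1, 2 and unnumbered. miR-126a-5p had 3, 4 and 17 reads there, against 433, 1462 and 241 in fibroblast libraries 1, 2 and 4. The serum and liver miRNA miR-122-5p had 1 to 8 exosome reads. The part of these miRNAs in the miR-21 values was not tested.

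In fibroblasts nearly every miR-21 read was the guide arm, and in 2 of 3 exosome libraries most were the passenger arm. The guide fell in exosomes, and the passenger had a higher mean level there without passing the test over all miRNAs. The difference between the arms passed a test over hairpins that treats the arms of a library as independent. The shift was in the same direction in all 3 exosome libraries, but its size differed widely between them.

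The guide arm, miR-21-5p, had 76, 59 and 285 reads in exosome libraries 1, 2 and unnumbered, against 520836, 1234126 and 207590 reads in fibroblast libraries 1, 2 and 4. As a share of reads without miR-873-3p this was 0.418% (95% Clopper-Pearson interval 0.330 to 0.523), 0.411% (0.313 to 0.530) and 2.41% (2.14 to 2.70) in the exosome libraries, against 8.27%, 9.90% and 8.72% in the fibroblast libraries. Amplified reads are not separate molecules, and these intervals express counting error alone. The unnumbered exosome library held the most guide reads of its group, and every exosome library lay below every fibroblast library. On CPM, the count relative to the TMM-scaled library size, 39.3% of all miRNAs tested had groups that did not overlap. The group means were 1.08% ± 1.15 in exosomes and 8.96% ± 0.845 in fibroblasts (SD, n = 3 each; two-sided exact permutation p = 0.1, the lowest this design allows). By abundance miR-21-5p ranked 43, 39 and 9 in the exosome libraries, against 3 in each fibroblast library.

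In the fit over all miRNAs, miR-21-5p had a log2 fold change of -5.23 in exosomes (SE 1.86), or 37.5-fold lower, and passed (quasi-likelihood test of edgeR, Benjamini-Hochberg adjusted p = 0.020). It was 1 of 130 miRNAs lower in exosomes, 18.6% of the 698 tested, and the change was the 8th lowest among them. The size and the call rested on the exosome libraries. Without exosome library 1 the log2 fold change was -4.78 (edgeR adjusted p = 0.13), without exosome library 2 it was -5.25 (0.096), and without the unnumbered one the arm was 186-fold lower (log2 -7.54, adjusted p = 5.2e-05). Over all alternatives the adjusted p lay between 3.2e-09 and 0.13.

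The passenger arm, miR-21-3p, had 286, 650 and 18 reads in exosome libraries 1, 2 and unnumbered, against 3245, 10856 and 1461 reads in fibroblast libraries 1, 2 and 4. Leaving miR-873-3p out of the total, it held 1.57% (95% Clopper-Pearson interval 1.40 to 1.77), 4.53% (4.20 to 4.89) and 0.152% (0.0902 to 0.240) of exosome reads, against 0.0515%, 0.0871% and 0.0613% of fibroblast reads. The order within exosomes was the opposite of that of the guide: library 2 held the most and the unnumbered library the least. On this denominator the groups did not overlap, with means of 2.09% ± 2.24 in exosomes and 0.0667% ± 0.0184 in fibroblasts (SD, n = 3 each; two-sided exact permutation p = 0.1, the lowest possible). Leaving miR-873-3p out raises the shares of all other miRNAs far more in exosomes than in fibroblasts. How many miRNAs did not overlap on this denominator was not counted. On CPM the groups of the passenger overlapped (exact permutation p = 0.4). Of all miRNA reads, miR-873-3p included, the passenger held 0.238%, 0.575% and 0.0151% in the exosome libraries, against 0.0509%, 0.0868% and 0.0599% in the fibroblast libraries. There the unnumbered exosome library lay below every fibroblast library, and the groups overlapped (means 0.276% ± 0.282 and 0.0659% ± 0.0187 in exosomes and fibroblasts, SD, n = 3 each; exact permutation p = 0.4). By abundance it ranked 9, 5 and 89 in the exosome libraries, against 92, 73 and 86 in the fibroblast libraries.

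In the fit over all miRNAs the log2 fold change of miR-21-3p was 2.07 (SE 0.92), or 4.21-fold, and did not pass (adjusted p = 0.072 by edgeR; unadjusted p = 0.024). Of the 698 miRNAs 11.3% were called higher in exosomes, and miR-21-3p ranked 64th from the highest fold change. Without the unnumbered exosome library the passenger passed, with a log2 fold change of 2.50 (edgeR adjusted p = 0.018), and without exosome library 2 the value was 0.70 (adjusted p = 0.67). With miR-873-3p left out of the fit it passed as well (log2 2.52, adjusted p = 0.019), and it did so with total counts in place of TMM scaling (log2 2.07, adjusted p = 0.0055). Over all alternatives the adjusted p lay between 9.2e-04 and 0.67, and the fold change was positive in each.

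**Figure D1:**
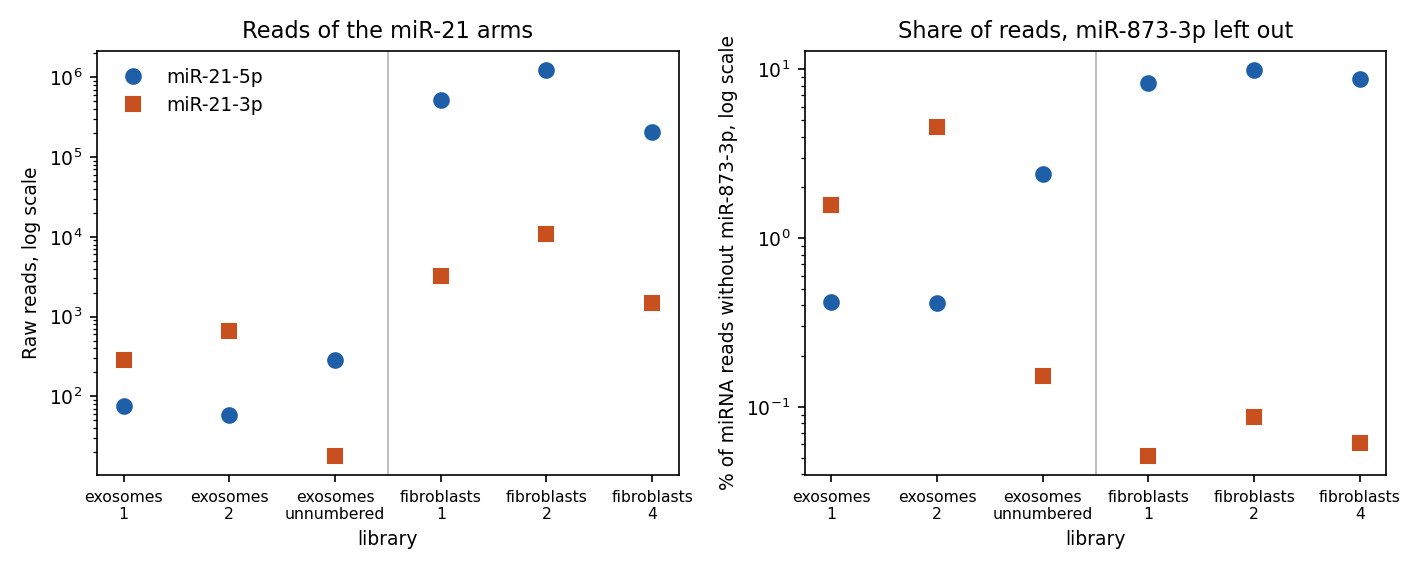
Reads of miR-21-5p (circles) and miR-21-3p (squares) in each library, as raw reads on the left and as a percentage of miRNA reads without miR-873-3p on the right, both on log axes, with exosome libraries left of fibroblast libraries. The squares lie above the circles in exosome libraries 1 and 2, with 286 against 76 and 650 against 59 reads, and below them in the other 4 libraries.

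The 3p arm made up 79.0% (95% Clopper-Pearson interval 74.4 to 83.1), 91.7% (89.4 to 93.6) and 5.94% (3.56 to 9.23) of miR-21 reads in exosome libraries 1, 2 and unnumbered, against 0.619% (0.598 to 0.641), 0.872% (0.856 to 0.888) and 0.699% (0.664 to 0.736) in fibroblast libraries 1, 2 and 4. This share does not depend on the library total or on miR-873-3p. In exosome libraries 1 and 2 there were 3.76 and 11.0 passenger reads per guide read. In the unnumbered exosome library there were 15.8 guide reads per passenger read, against 161, 114 and 142 in the fibroblast libraries. Each exosome library, the unnumbered one included, thus had a larger 3p share than any fibroblast library, beyond counting error. The means were 58.9% ± 46.3 in exosomes and 0.730% ± 0.129 in fibroblasts (SD, n = 3 each; two-sided exact permutation p = 0.1, the lowest possible). The spread between libraries was far larger in exosomes than in fibroblasts. A larger share in each exosome library than in any fibroblast library was also seen for the passengers of mir-22 and mir-143, described below. How many of all hairpins did so was not counted.

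**Figure D2:**
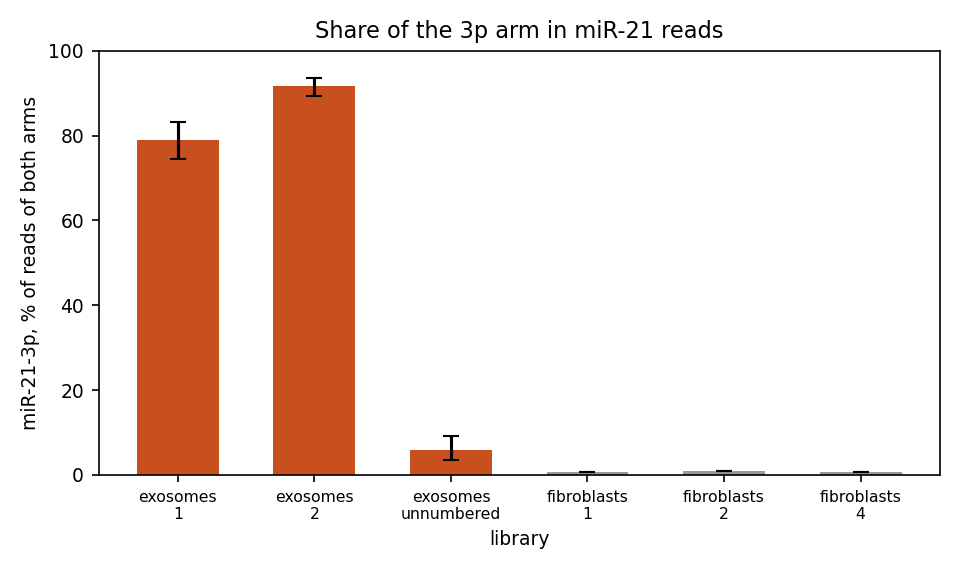
Share of miR-21-3p in the reads of both miR-21 arms in each library, in percent, with 95% Clopper-Pearson intervals as error bars and exosome libraries left of fibroblast libraries. Exosome libraries 1 and 2 stand at 79.0% and 91.7%, the unnumbered one at 5.94%, and the 3 fibroblast libraries under 1%.

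A test of arm usage compared the fold changes of both arms within each of 248 hairpins. The mir-21 hairpin shifted towards 3p in exosomes, with a difference in log2 fold change of 7.31 between the 3p and the 5p arm (SE 1.19, edgeR's diffSpliceDGE, Benjamini-Hochberg adjusted over hairpins, adjusted p = 2.7e-07). Arm usage differed in 83 of the 248 hairpins, 33.5%, and 43, or 17.3% of the 248, moved towards 3p. The difference of mir-21 was the 3rd largest in size, after those of mir-93 (7.65, towards 3p) and mir-130a (-7.56, towards 5p). It was called under every alternative run, with values from 5.96 without exosome library 2 to 10.0 without the unnumbered one (adjusted p between 1.9e-13 and 0.034).

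**Figure D3:**
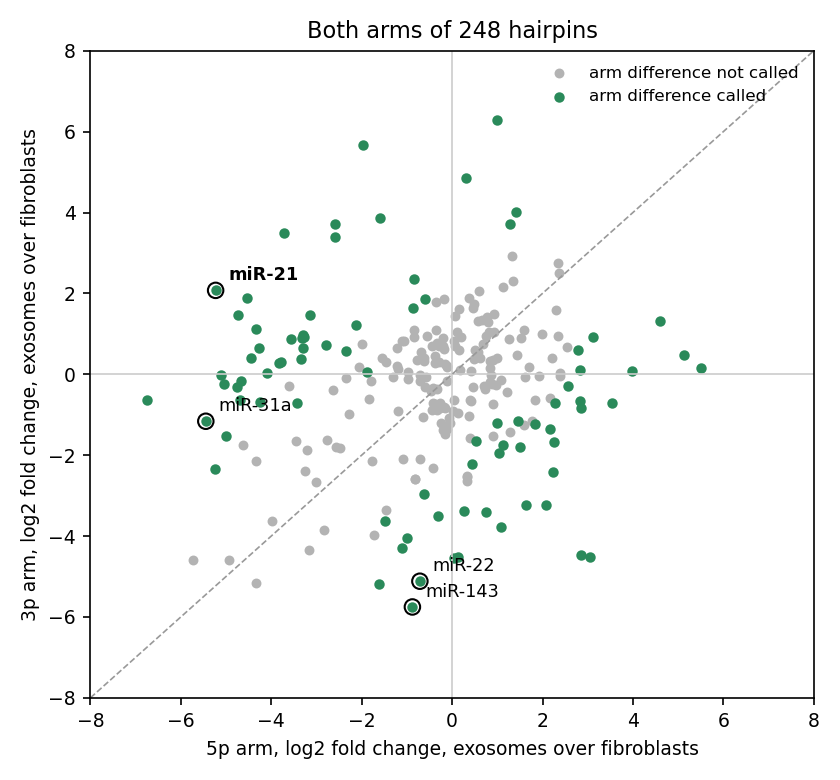
Log2 fold change, exosomes over fibroblasts, of the 5p arm (x axis) and the 3p arm (y axis) of 248 hairpins, with those called for arm usage in green, the others in grey, and the line of equal change dashed. miR-21 lies at -5.23 and 2.07, far above the line, while miR-22 and miR-143, whose guide is the 3p arm, lie below it.

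The 6 fibroblast markers give a base for both arms within each library. The guide had 117, 59.6 and 38.5 reads per 100 marker reads in exosome libraries 1, 2 and unnumbered, against 31.4, 37.0 and 28.4 in the fibroblast libraries. Relative to these markers the guide was not lower in any exosome library than in any fibroblast library. miR-143-3p, most of this base in fibroblasts, was itself lower in exosomes (log2 fold change -5.75, SE 2.25). How many other miRNAs were not lower on this base was not counted. The passenger had 440.0, 657 and 2.43 reads per 100 marker reads in the exosome libraries, against 0.196, 0.326 and 0.200 in the fibroblast libraries. The marker reads behind these ratios were 65, 99 and 741 in the exosome libraries. Of these, miR-143-3p gave 15, 72 and 646, and miR-199a-5p gave 30, 11 and 7. The unnumbered library thus held the most reads of this list, and the most guide and the fewest passenger reads of miR-21. How far the uneven marker reads of the exosome libraries enter the arm shares was not tested. Per 1000 reads of miR-873-3p the passenger had 2.80, 6.58 and 0.168 in the exosome libraries, against 40.5, 222 and 25.2 in the fibroblast libraries. The guide had 0.745, 0.597 and 2.66 in the exosome libraries, against 6500, 25205 and 3585 in the fibroblast libraries. In fibroblasts miR-873-3p had 80123, 48963 and 57905 reads, a small part of the total, while in exosomes it had most reads. By itself this base thus favours lower values in exosomes, and how many miRNAs were lower on it was not counted.

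Arm shares were compared with those of mir-22, mir-143 and mir-31a, hairpins that also have 1 dominant arm in fibroblasts. miR-22-5p, the passenger of mir-22, made up 6.17%, 4.42% and 0.336% of its hairpin's reads in exosome libraries 1, 2 and unnumbered, against 0.0281% to 0.0802% in fibroblasts. miR-143-5p made up 16.7%, 6.49% and 1.07% in the same exosome libraries, against 0.0299% to 0.0754% in fibroblasts. miR-31a-3p made up 37.5% and 22.2% in exosome libraries 1 and 2 and had 0 of 21 reads in the unnumbered one, which allows a share of up to 14.3%, against 0.0942% to 1.29% in fibroblasts. The passenger share was thus above every fibroblast value in exosome libraries 1 and 2 for all 4 hairpins. In the unnumbered library this held for mir-21, mir-22 and mir-143. The passengers of the 3 hairpins other than mir-21 had at most 7 reads in any exosome library. The shifts towards the passenger were called for each of the 3, at 4.40 (SE 0.82) for mir-22, 4.88 (SE 0.84) for mir-143 and 4.29 (SE 1.12) for mir-31a (edgeR's diffSpliceDGE, adjusted p = 5.2e-06, 1.7e-06 and 0.0011).

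The larger value of mir-21 was not shown to differ from these. On log2 of passenger over guide reads, with 0.5 added to each count, mir-21 exceeded mir-22 by 5.80 ± 1.91 in exosomes and by 4.11 ± 0.566 in fibroblasts (SD, n = 3 each; exact permutation p = 0.3). It exceeded mir-143 by 4.57 ± 2.39 in exosomes and by 4.02 ± 0.507 in fibroblasts (exact permutation p = 0.8, n = 3 each), and mir-31a by 3.02 ± 1.82 in exosomes and by 0.77 ± 1.84 in fibroblasts (exact permutation p = 0.3, n = 3 each). The smallest p of this design is 0.1, so these comparisons could not have passed.

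A wider set, chosen after the values were seen, took the hairpins whose minor arm held under 5% of reads in each fibroblast library, 28 in all. Of these, 11 had 20 or more reads in every exosome library. The minor arm passed 50% in 3 of them in exosome library 1 (mir-21, mir-99b and mir-125a), in 2 in exosome library 2 (mir-21 and mir-27b) and in 0 in the unnumbered library. Of the 11, mir-21 passed 50% in both library 1 and library 2. mir-130a did so too, with 50 of 55 and 37 of 43 reads on its minor 5p arm, 90.9% and 86.0%, but it is outside the 11 because it had 10 reads in the unnumbered library. mir-99a, outside the set because its minor 3p arm held 6.26% in fibroblast library 2, stood at 72.8%, 82.1% and 73.2% in exosome libraries 1, 2 and unnumbered. A minor-arm majority in exosome libraries 1 and 2 was thus seen in other hairpins than mir-21. In 10 of the 11 the unnumbered library had the lowest minor-arm share of the exosome libraries, mir-351 being the exception, so the low value of mir-21 there was shared by most of this set. The 10 include mir-873, whose shares of 0.0049%, 0.0040% and 0.0037% in exosome libraries 1, 2 and unnumbered are too near 0 to order. This order was not counted over all hairpins.

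**Figure D4:**
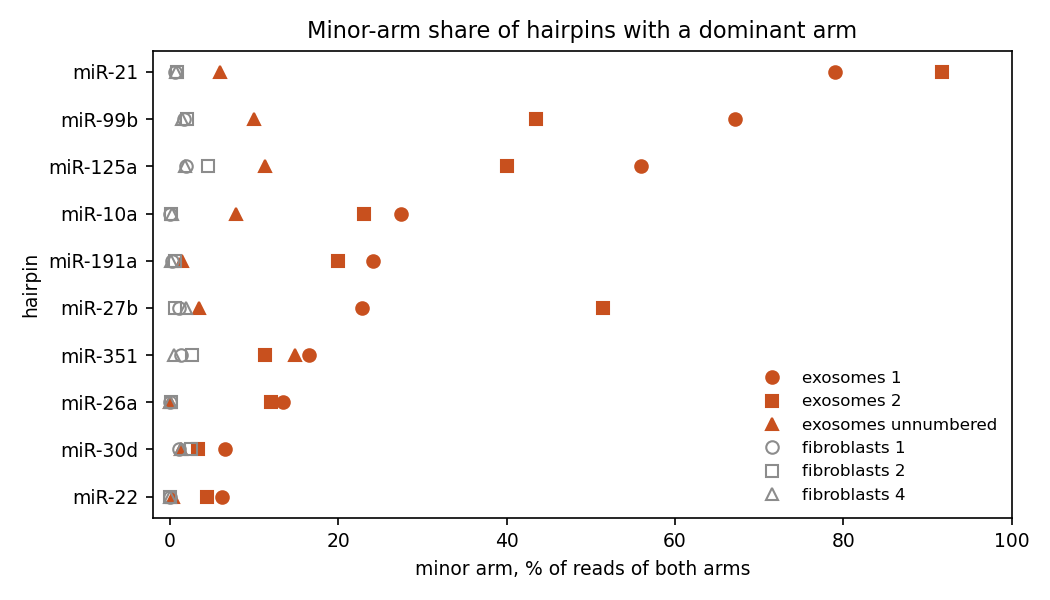
Share of the minor arm in the reads of both arms, in percent, for 10 hairpins with a dominant arm in fibroblasts and 20 or more reads in every exosome library (mir-873, whose minor arm is near 0 in exosomes, is left out). Filled symbols are exosome libraries and open symbols are fibroblast libraries; mir-21 stands at 79.0% and 91.7% in exosome libraries 1 and 2.

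Over all hairpins with 20 or more reads in a library, the median minor-arm share was 30.0%, 29.4% and 14.3% in exosome libraries 1, 2 and unnumbered (131, 108 and 69 hairpins), against 21.3%, 26.8% and 19.4% in fibroblast libraries 1, 2 and 4. From the top, mir-21 ranked 18th of 131, 11th of 108 and 50th of 69 hairpins in the exosome libraries. In the fibroblast libraries it ranked 253rd of 265, 256th of 265 and 240th of 258. A list of 26 hairpins with a well known guide arm, chosen also as abundant in fibroblasts, showed the same kind of shift in most members. That choice by itself favours guides that are lower in exosomes, so these counts describe the list and are no independent support. The guide was lower in 22 and higher in 0, 4 guides did not pass, and their median log2 fold change was -4.33, against -0.15 for all 698 miRNAs tested. Of the 26 passengers 5 were lower, 2 higher (miR-93-3p and miR-23a-5p) and 19 not called, with a median of -0.93. Of all 698 miRNAs 18.6% were lower and 11.3% higher, so the passenger counts lay near those shares. Of 23 hairpins of the list with an arm test, 15 shifted towards the passenger, 0 towards the guide and 8 were not called; of all 248 hairpins 29.8% were called towards the arm with fewer reads summed over the fibroblast libraries, and 21.0% towards the arm whose log2 CPM, averaged over exosomes and fibroblasts together, was lower. The 29.8% uses an arm defined by the fibroblast reads of the same test, which by itself favours shifts towards that arm.

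The most abundant hairpins of that list give the range of passengers around miR-21-3p. miR-26a-3p had 7, 6 and 0 reads in exosome libraries 1, 2 and unnumbered and a log2 fold change of 1.88 (SE 0.88; not called), while its hairpin shifted towards the passenger by 6.42 (SE 0.94). miR-125b-1-3p, whose guide miR-125b-5p is shared with another hairpin copy, was lower in exosomes (log2 fold change -4.40, SE 1.14), as was miR-181a-1-3p (log2 -3.22, SE 0.75). The passengers of this list thus did not share 1 direction, and their calls lay near the shares of all miRNAs tested.

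miRNAs whose profile was most like that of each arm were ranked by Pearson's r of log2(CPM + 1) over the 6 libraries, among 425 miRNAs with a mean of 50 CPM or more. The profiles nearest to miR-21-5p were those of let-7f-5p (r = 0.998), let-7i-5p (0.997), miR-148b-3p (0.997), miR-151-3p (0.996) and miR-22-3p (0.996), all abundant in fibroblasts. let-7i-5p, for example, had 11, 13 and 66 reads in exosome libraries 1, 2 and unnumbered, against 116815, 206699 and 34991 in the fibroblast libraries, so it shared the high value of the unnumbered exosome library. The profiles nearest to miR-21-3p were less close: miR-3068-5p (r = 0.926), miR-376a-3p (0.909), miR-216b-5p (0.909), miR-376c-3p (0.901) and miR-133b-5p (0.896). miR-376a-3p, a member of the imprinted Dlk1-Dio3 cluster, had 101, 91 and 3 reads in the exosome libraries, against 170, 706 and 157 in the fibroblast libraries, and so was also lowest in the unnumbered exosome library. Between the arms of miR-21 r was -0.74. These correlations describe 6 libraries in 2 groups, and libraries of 1 group share their range of depth and the level of miR-873-3p.

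The guide of miR-21 is usually named with other miRNAs linked to cardiac fibrosis or hypertrophy, and miRNAs described as brakes on fibrosis are set against it. Of 28 tested arms of the first kind, 9 (32.1%) were lower in exosomes, 2 were higher (miR-503-5p and miR-208b-5p, named after the values were known) and 17 did not pass, against 18.6% lower among all miRNAs tested. Their median log2 fold change was -0.53. miR-22-3p, which promotes cardiac hypertrophy in mouse, had -5.12 (SE 2.03; edgeR adjusted p = 0.041), close to the value of miR-21-5p, and miR-199a-3p and miR-199a-5p of mesenchymal cells had -5.17 (SE 1.48) and -4.35 (SE 1.03). miR-212-3p did not pass (log2 -1.20, SE 0.72). Of 24 tested arms of the second kind, 10 (41.7%) were lower, 2 were higher (miR-133b-5p and miR-24-1-5p, likewise) and 12 did not pass, with a median of -1.34. miR-29a-3p, which represses collagen genes, had -4.52 (SE 0.97), miR-26a-5p -4.54 (SE 1.48), miR-101a-3p -3.37 (SE 0.91) and miR-30a-5p -3.25 (SE 1.25). The 4 arms named first from each list had its highest mean CPM, which for most of them came from the fibroblast libraries. That choice can favour arms lower in exosomes, so their shared direction is no independent support. Both lists held guides that were lower in exosomes, as miR-21-5p was. Like miR-21-5p, 3 of these lost their call without exosome library 1 and without exosome library 2: miR-22-3p (edgeR adjusted p = 0.19 and 0.14), miR-26a-5p (0.093 and 0.073) and miR-30a-5p (0.18 and 0.13). miR-199a-3p lost it without library 1 (adjusted p = 0.054).

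The authors' deposited table, which gives fibroblasts over exosomes, listed miR-21-5p with a log2 fold change of 5.19 and an adjusted p = 5.8e-05, the 3rd smallest p of its 729 rows. In the authors' deposited table miR-21-3p had -2.13 in the same direction of coding, which is higher in exosomes, and an adjusted p = 0.914. The authors' comparison had 53 of 728 miRNAs at an adjusted p under 0.05, miR-21-5p included. All 53 were lower in exosomes, so it called no miRNA higher there. The authors' mean normalized counts of miR-21-3p were 2058 in exosomes and 470 in fibroblasts.

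**Figure D5:**
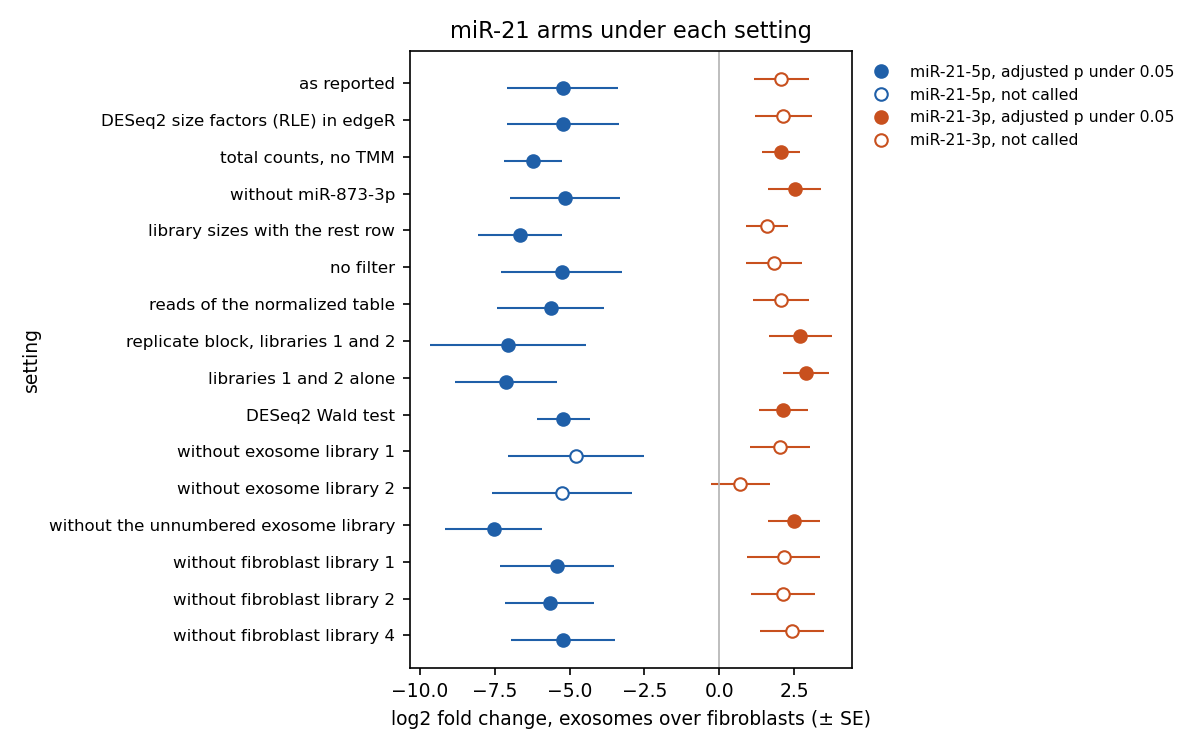
Log2 fold change, exosomes over fibroblasts, of miR-21-5p and miR-21-3p with its standard error as reported (top) and under each alternative setting; filled points have an adjusted p under 0.05. miR-21-5p stays between -7.54 and -4.78 and miR-21-3p between 0.70 and 2.90.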

How the data were processed

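The deposited raw counts, whole reads for each mature miRNA, went into the main tests. The authors' normalized table holds a signal: reads over a single size factor for each library. Its reads made up 99.3% to 99.8% of the raw reads. Its last row, rest, holds no named miRNA; with 63.1% to 84.4% of the reads, it was left out except where stated. The authors' deposited comparison lists, per the file headers, group means of this signal, their ratio (fold change) and its log2 value, with p-values before and after adjustment. The submitters' processing notes name CASAVA 1.8.2, cutadapt 1.2.1, DESeq and the genome rn5; how reads were aligned and counted is not given in the sources used here. Coordinates come from RefSeq's GRCr8 alone.

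Counts were fitted with edgeR 4.0.16 (R 4.3.3): TMM, filterByExpr (minimum count 10, minimum total 15), which left 698 miRNAs, both miR-21 arms included, and the two-sided quasi-likelihood test on group, with Benjamini-Hochberg adjustment at 0.05. A standard error is the size of the fold change over the square root of F. Arm usage was tested with diffSpliceDGE on 248 of 265 hairpins with both arms listed. Scripts were tested on simulated data. Single values were compared with exact permutation tests (SciPy 1.17.1). Alternatives were other scalings, no filter, the other read table, a replicate block, DESeq2 1.42.0, limma 3.58.1 and each library left out. Named miRNAs were both arms, the 5 most alike per arm, the 4 most abundant per list, the 5 most abundant hairpins of the guide list and 3 similar hairpins; others are said to be chosen later. Members and lists were chosen with earlier results of these data known.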

Additional observations from a re-analysis of the deposited data

How the results depend on the processing

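The arm difference of mir-21 kept its direction and call under all 11 alternatives run on it, and both arms kept their direction under all 15. miR-21-3p, not called in the reported fit, passed with total counts (log2 fold change 2.07), without miR-873-3p (2.52), with DESeq2 (2.14, adjusted p = 0.030), with the replicate block on libraries 1 and 2 (2.71, adjusted p = 0.034) and, chosen after seeing the data, in these 4 libraries without it (2.90, adjusted p = 9.2e-04); the cause was not tested. Leaving out each library in turn gave -7.54 to -4.78 for miR-21-5p, 0.70 to 2.50 for miR-21-3p, 5.96 to 10.0 for the arm difference, 42.5% to 85.3% for the mean 3p share of miR-21 reads in exosomes, 134 to 214 called miRNAs (209 with all libraries) and 38 to 91 called hairpins (83 with all). The low hairpin counts of 38, 39 and 42 came without fibroblast libraries 1, 2 and 4, where 94, 80 and 99 hairpins passed the filter. Mean shares of exosome reads for miR-21-5p and miR-21-3p were 0.118% and 0.276% with miR-873-3p and 1.08% and 2.09% without it, and without 1 exosome library 0.0577% to 0.151% and 0.127% to 0.406%. Calls higher and lower were 79 and 130 as reported, 43 and 121 with total counts, 105 and 117 without miR-873-3p and 35 and 195 with library sizes that include the rest row, where the median log2 fold change of all miRNAs was -0.15, -0.57, 0.20 and -0.96. Same-numbered libraries did not deviate together (r = -0.07 for number 1 and 0.16 for number 2), and the block gave 242 called miRNAs and 92 called hairpins. Of 255 fits of the other 17 named miRNAs, 18 lost and 2 gained a call. Depth limits the exosome values, where miR-21-3p rests on 18 reads in 1 library.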

Other observations

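The reads behind the deposited normalized table equalled the raw reads of both miR-21 arms in the 3 exosome libraries and in fibroblast libraries 1 and 4. In fibroblast library 2 they were 10849 and 1234125 for the 3p and the 5p arm, against 10856 and 1234126 in the raw table.

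Neither arm of miR-21 holds GGAG, a motif described for miRNAs sorted into exosomes of human T cells. It was found in 51 of the 655 listed miRNAs with a sequence, 7.79% (searched on the mature strand as written). The 5p arm shares its first base, U, with 35.9% of these miRNAs, and the 3p arm its first base, C, with 21.8%.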
